A study of Xenopus tropicalis with 4 samples.

Results

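Sites at which RNA ended downstream of the annotated end of its gene were examined in whole-body RNA of adult Xenopus tropicalis, a diploid clawed frog. They are the sites that the deposited table marks with class code p, read here as in Cuffcompare as lying shortly past a gene on its own strand, a scheme the table does not name. There were 7042 such downstream sites among the 66426 listed, or 10.6%, and they belonged to 4483 of the 15410 named genes, or 29.1%. Each was set against the sites of the same gene that lie inside an exon (class code c) or overlap one (class code o), together called exonic sites here and 36950 in number. A gene with an exonic site was found for 5752 downstream sites in 3476 genes. The other 1290 downstream sites, in 1007 genes, had no exonic site to be measured from, and 861 of these genes had no other site on their own strand.

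The 3' end of a messenger RNA is made by cutting the nascent transcript and adding a poly(A) tail, a step guided by short sequence elements around the cut and by a large complex that includes the cleavage and polyadenylation specificity factor. Many genes hold several such sites, and the one used sets the length of the 3' untranslated region, which carries binding sites for microRNAs and RNA-binding proteins. In vertebrates, germ cells and embryos tend to use sites near the stop codon and nervous tissue tends to use distant ones. An annotated gene end that is short of the ends in use leaves reads past the gene, so a downstream site can be an extended 3' end that the annotation does not yet hold.

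Whole transcriptome termini site sequencing (WTTS-seq), which reads the 3' ends of polyadenylated RNA, had been applied to total RNA of whole-body homogenates. The series asks how sites are used in the sexes. The groups were 2 adult females and 2 adult males, 1 library per individual frog, with no treatment, strain or age beyond adult given in the labels. In bulk RNA of a whole body, fewer cells of a type and less RNA per cell cannot be told apart, and an ovary with its eggs makes up part of a female.

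Library totals were 2380500 reads for female 1, 1778737 for female 2, 2779715 for male 1 and 1531471 for male 2. The summed level of 32 oocyte and egg markers was 5753 and 5891 CPM (reads scaled to the effective library size) in the females against 13.0 and 15.3 in the males, where 25 and 24 of the 32 symbols were at 0, including 6 that are not in the table and so were at 0 in the females too. Skeletal muscle markers summed to 13759 and 7294 CPM in the females against 143828 and 112064 CPM in the males. The part of this difference in body composition in the sex comparisons below was not tested. No molecular identifiers are mentioned in the labels, and intervals and limits therefore cover counting error only.

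Most genes with a downstream site had a single one (2995 genes, 66.8%), while 883 had 2, 347 had 3 and 9 had 8, the most in any gene. Neighbouring downstream sites of a gene were a median of 292 bases apart, with quartiles of 152 and 586 over 2559 pairs. Measured along the strand from the most downstream exonic site of the gene, downstream sites lay between 33 and 295454 bases away, with a median of 761 and quartiles of 325.75 and 1389. None lay at or upstream of that site. In Cuffcompare the code p is kept to within 2000 bases of an annotated transcript, a limit that would itself bound the distances, and 482 sites, or 8.38%, lay more than 2000 bases from the last exonic site. The distance runs from the last exonic site seen in these reads and not from the annotated end, which the table does not give, so a gene whose own end had no reads shows a longer distance.

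**Figure D1:**
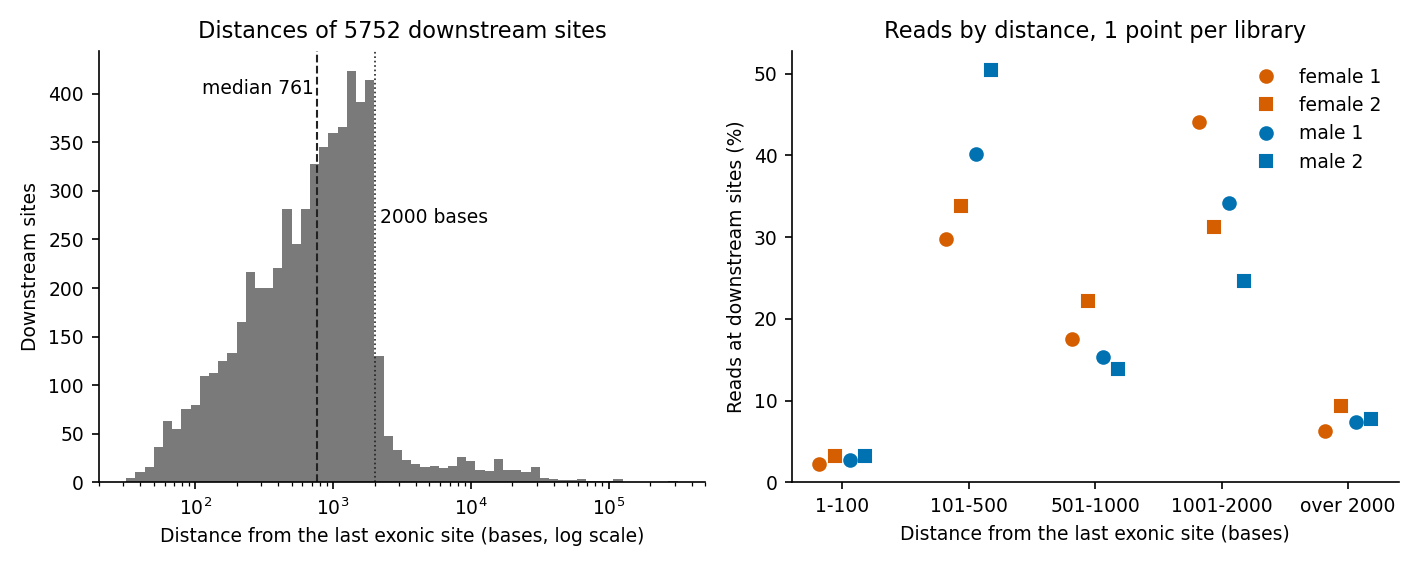
Distance of 5752 downstream sites from the last exonic site of their gene (left, bases on a log axis, with the median of 761 dashed and 2000 bases dotted), and the share of the reads at these 5752 sites by distance in each of the 4 libraries (right, percent, 1 point per library). Male 2 had 50.4% of these reads between 101 and 500 bases and female 1 had 44.1% between 1001 and 2000 bases.

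Downstream sites were less deeply read than exonic ones. The median was 9 reads over the 4 libraries, against 12 at sites inside exons and 70 at sites that overlap an exon, and 51.5% of downstream sites had fewer than 10 reads. Their median width was 33 bases, against 26 and 43 for the other kinds. A handful of sites held much of the signal, since the 10 deepest took 26.5% of all downstream reads. Reads in all 4 libraries were found at 1409 downstream sites. In both males, 2983 sites (42.4%) had 0 reads, and in both females 603 sites (8.56%). Exonic sites showed a like imbalance, with 36.1% at 0 in both males and 5.04% at 0 in both females. Downstream sites with a read made up 72.5% and 78.1% in the females against 35.0% and 51.4% in the males, and male 1, the deepest library, had the smallest share. At these depths a site at 0 may be below detection and is not shown to be unused.

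Neighbours of the sites were counted in the same table. Another gene's site on the opposite strand lay within 1000 bases of the last downstream site in 5.82% of 4483 genes, against 6.82% around the last exonic site in 10156 genes with no downstream site. Another gene's site on the same strand lay within 5000 bases in 1.36% and 1.49%. A site with no gene lay downstream on the same strand within 10000 bases in 23.0% of genes with a downstream site, against 7.46% of genes without one. These shares are descriptions without a test, and the windows start at different points of the genes: at a downstream site in the former and at an exonic site in the latter. Downstream sites made up between 10.2% (chromosome 6) and 13.6% (chromosome 10) of the sites of genes on the numbered chromosomes, and 17.0% on scaffolds not placed on a chromosome.

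Of gene-assigned reads, downstream sites took 6.32% in female 1, 6.05% in female 2, 4.21% in male 1 and 3.96% in male 2. Both females lay above both males, with means of 6.18% ± 0.191 and 4.09% ± 0.175 (SD, n = 2 each). The exact permutation test gave p = 0.333, two-sided, the smallest that 2 against 2 can give. The reads behind these shares were 144375 and 92085 in the females against 101696 and 54974 in the males, which sets the 95% Wilson interval at 6.28 to 6.35% for female 1 and 3.93 to 4.0% for male 2. Without the single deepest site, past the end of ncbp3, the shares were 5.32%, 5.92%, 4.04% and 3.95%, so the order of the sexes was kept.

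By the read-weighted median, downstream reads lay farther out in the females. Only genes with an exonic site have a distance and are covered here. Genes without one held 12.8% and 24.5% of downstream reads in the females against 24.6% and 20.4% in the males. The read-weighted median distance was 1041 and 788 bases in females 1 and 2 and 703 and 454 bases in males 1 and 2, or 914.5 ± 179 against 578.5 ± 176 bases (SD, n = 2 each, exact permutation p = 0.333, two-sided). Between 101 and 500 bases the males had 40.2% and 50.4% of their downstream reads with a distance and the females 29.8% and 33.9%. Between 501 and 1000 bases the order was turned, with 17.6% and 22.2% in the females against 15.4% and 13.9% in the males. In the bin from 1001 to 2000 bases the libraries overlapped, with 44.1% and 31.3% in the females against 34.2% and 24.7% in the males. Beyond 2000 bases they overlapped too, with 6.32% and 9.38% against 7.45% and 7.73%. These are sums of reads, in which the deepest sites weigh most. The hbg1 site, 103 bases out, had 3129 and 825 reads in the females against 9382 and 10037 in the males. That of ncbp3, 1378 bases out, had 24011 and 2101 reads in the females against 4172 and 142 in the males. Whether the order of the sexes holds without them was not tested.

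The picture gene by gene was different. In 1581 genes with both kinds of site and at least 10 reads in every library, the median share of a gene's reads at downstream sites was 5.0% and 4.90% in the females against 2.2% and 5.71% in the males. The males bracketed the females, and the exact permutation test gave p = 1 (two-sided, n = 2 each). Downstream sites took more than 50% of the reads in 264 and 244 of these genes in the females and in 313 and 295 in the males. In 171 genes, or 10.8%, they did so in all 4 libraries, and in 410 genes in at least 1. These are sums over the downstream sites of a gene, and the most-read single site can still be exonic.

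The genes with most reads among these 171 were ncbp3, hbg1, elovl1, ctsd, pdhb and nup50, which also hold 6 of the 8 deepest downstream sites. The deepest lay on the plus strand of chromosome 2 at position 44185660, 1378 bases past the last exonic site of ncbp3, which encodes a subunit of the nuclear RNA cap-binding complex. It had 24011 and 2101 reads in the females against 4172 and 142 in the males, and it held 99.4%, 94.8%, 99.2% and 88.2% of the gene's reads. Levels of 8324 and 867 CPM in the females against 2015 and 114 CPM in the males differed more within a sex than between the sexes (log2 male/female -2.11, SE 1.57, adjusted p = 0.311, edgeR's quasi-likelihood test), and the test was passed without female 2 (adjusted p = 0.0396). Over all tested sites, 36.1% passed this test in either direction. Another downstream site of ncbp3, 1485 bases out, had 51 and 13 reads in the females and only 3 and 2 in the males.

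At hbg1, which encodes a globin of hemoglobin, the site lay on the minus strand of chromosome 9 at position 36978836. It was 103 bases past an exonic site that had 1 read in all, and it held between 99.98% and 100% of the gene's reads. Its level was 1085 and 340 CPM in the females against 4532 and 8058 CPM in the males. Both males lay above both females, yet the difference missed the threshold in edgeR's quasi-likelihood test (log2 3.14, SE 1.14, adjusted p = 0.0642) and passed it in DESeq2's Wald test (adjusted p = 0.00341) and without female 1 (edgeR, adjusted p = 0.0190). Globin genes lie in clusters of close relatives, so reads shared with a near-identical copy cannot be assigned with certainty.

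The other 4 genes showed the same dependence on their downstream sites at levels that varied between frogs of one sex. The site of ctsd, which encodes the lysosomal protease cathepsin D, lay 1909 bases out and held 98.8% and 97.1% of the gene's reads in the females against 99.9% and 98.3% in the males. That of elovl1, an enzyme that lengthens very long fatty acids, held 92.1% and 62.1% in the females against 92.7% and 57.0% in the males, so that replicate 2 of each sex was the lower. At pdhb, the beta subunit of the pyruvate dehydrogenase E1 enzyme, the share was 77.4% and 67.5% in the females against 94.5% and 58.2% in the males. The share at nup50, a nuclear pore protein, was 86.6% and 62.1% in the females against 91.5% and 90.8% in the males. None of the 4 passed the test of levels in edgeR (adjusted p of 0.402, 0.568, 0.291 and 0.397).

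Of the remaining deepest sites, that of sln, which encodes sarcolipin, a small membrane protein that slows the calcium pump of muscle, belonged to a gene with no exonic site. It had 105 and 36.7 CPM in the females against 1445 and 781 CPM in the males, and both males were above both females (log2 3.97, SE 0.93, adjusted p = 0.0198, edgeR). The site of LOC108645643, likewise without an exonic site, had 252 and 5074 CPM in the females against 58.0 and 136 CPM in the males. Its females differed from each other by more than female 1 differed from the males, and its call (log2 -4.78, SE 1.51, adjusted p = 0.0420, edgeR) was lost without female 2, male 1 or male 2 (adjusted p of 0.271, 0.114 and 0.111).

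The genes with most downstream sites, 8 each, are shown for 4 of 9 such genes. At tcf7l2, a transcription factor of Wnt signalling, the 8 sites spanned 1478 bases. The gene had no exonic site, so by definition the 8 downstream sites held all of its reads at exonic or downstream sites. They had 317 and 69 reads in the females against 2565 and 413 in the males. The deepest of them stood at 89.1 and 17.7 CPM in the females and at 966 and 137 CPM in the males, and edgeR gave a log2 difference of 3.37 (SE 1.19, adjusted p = 0.0594). Of the 8, 2 less deep ones were called higher in males, with 11 and 8 reads against 165 and 120 (log2 4.60, adjusted p = 0.0197, edgeR) and 5 and 1 against 65 and 28 (log2 4.55, adjusted p = 0.0201, edgeR). Both passed the filter on low counts, described below, through the males alone. At aqp11, an aquaporin, the 8 sites spanned 1483 bases and had 89 and 93 reads in the females against 77 and 77 in the males. Those of LOC100485959 reached from 496 to 1889 bases past the last exonic site and took 37.5% and 39.9% of the gene's reads in the females against 24.5% and 20.6% in the males, with no overlap of the sexes. The sites of cdk5rap2, a centrosome protein, had 64 and 51 reads in the females against 3 and 5 in the males.

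The sites farthest out, with at least 10 reads, belonged to rbms3, osbp2 and LOC108647906. The site of rbms3, an RNA-binding protein, lay 295454 bases past the last exonic site and had 0 and 1 reads in the females against 7 and 8 in the males. At osbp2, an oxysterol-binding protein, the site on the plus strand of chromosome 1 at position 157986414 lay 123785 bases out. It rose in males, from 2.77 and 0.825 CPM in the females to 30.4 and 26.5 CPM (log2 3.92, SE 1.00, adjusted p = 0.0239, edgeR), a call lost without female 2 (adjusted p = 0.184). This site passed the filter on low counts, described below, through the males alone. It held 25.8% and 15.4% of the gene's reads in the females against 86.3% and 84.6% in the males. Its use did not pass the test of site use described below (adjusted p = 0.379, edgeR). At LOC108647906 the distance was 78832 bases and the reads were 9 and 1 in the females against 20 and 20 in the males.

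Each site was next compared between the sexes with edgeR's quasi-likelihood test over all sites of the table, with log2 values of male over female. Of the 7042 downstream sites, 1381 (19.6%) passed the filter on low counts, against 33.5% of exonic sites. Higher levels in females were called at 286 of them (20.7%), where the share over all 17215 tested sites was 19.9%. Higher levels in males were called at 179 (13.0%), against 16.2% of all tested sites. Of tested exonic sites, 22.0% were called higher in females and 10.6% in males. The 465 calls together made up 33.7% of tested downstream sites, a share near the 36.1% over all sites. Their median log2 difference was -0.54, beside -0.58 over all tested sites. Of the calls higher in females, 156 had 0 reads in both males, while 12 of those higher in males had 0 reads in both females. These 156 and 12 sites passed the filter through the sex with reads alone. Scaling by library size without TMM moved the median over all sites to -1.30, and with it the split was 382 against 121, and the males' part of the calls went from 38.5% to 24.1%. Leaving out female 1, female 2, male 1 or male 2 gave 82, 140, 155 and 282 calls higher in females and 110, 46, 190 and 141 higher in males.

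The authors' deposited table marked 311 of the 7042 downstream sites at an FDR-adjusted p under 0.05. Of all 66426 sites it marked 4299 (6.47%), which is a larger share. Among the 311, its signed fold was higher in females at 231 and in males at 80. The split by sex over all marked sites was not counted, so this one is not shown to be particular to downstream sites. Of these 311 in the authors' deposited table, 278 were also called in the same direction by edgeR here.

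Among downstream sites called higher in females with no overlap of the sexes, the deepest were those of LOC108645643, described above, sep15, LOC100492632, ctcf, LOC101731067 and LOC548809. The site of sep15, a selenoprotein of the endoplasmic reticulum, lay 342 bases past the last exonic site and stood at 795 and 496 CPM in the females and at 131 and 105 CPM in the males (log2 -2.45, SE 0.72, adjusted p = 0.0351, edgeR). Its share of the gene's reads was 64.0% and 84.4% in the females against 84.2% and 94.9% in the males, so the share overlapped where the level did not. At ctcf, the DNA-binding protein of chromatin insulators, the site lay 997 bases out and had 219 and 370 CPM in the females against 17.9 and 32.9 CPM in the males (log2 -3.54, SE 0.75, adjusted p = 0.0197, edgeR). LOC100492632 stood at 777 and 163 CPM in the females while neither male had a read, which makes it at least 549-fold higher by the limit of 3 reads over the males. LOC548809 stood at 185 and 191 CPM in the females and had 0 and 1 read in the males. LOC101731067 had 391 and 66.8 CPM in the females and 4 and 0 reads in the males. The sites of LOC100492632, LOC548809 and LOC101731067 passed the filter on low counts through the females alone, so leaving out 1 library could not turn their direction. With each library left out in turn, the calls of the last 3 stayed below an adjusted p of 0.05 in edgeR, while that of ctcf reached 0.0773 without male 1 and the call of sep15 was lost without female 1, male 1 or male 2 (adjusted p of 0.150, 0.171 and 0.169).

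Among downstream sites called higher in males, the deepest without overlap were those of sln, foxk2, got2, capn2.2, acta2 and sdc2. The site of got2, the mitochondrial aspartate aminotransferase, lay 470 bases out and had 112 and 106 CPM in the females against 432 and 460 CPM in the males (log2 2.03, SE 0.66, adjusted p = 0.0465, edgeR). At capn2.2, a calpain protease, 50.3 and 9.49 CPM in the females stood against 678 and 189 CPM in the males (log2 3.86, SE 1.08, adjusted p = 0.0308, edgeR). The site of foxk2, a forkhead transcription factor, had 102 and 61.5 CPM in the females against 341 and 770 CPM in the males, and that of sdc2, a cell-surface heparan sulfate proteoglycan, had 76.3 and 59.4 against 370 and 226 CPM. At acta2, the actin of smooth muscle, 2 downstream sites lay 86 and 205 bases past the last exonic site. The farther one rose in males, from 45.8 and 37.5 CPM to 179 and 467 CPM (log2 2.95, SE 0.76, adjusted p = 0.0244, edgeR), yet its share of the gene's reads was the lower there, at 54.5% and 64.5% in the females against 33.1% and 35.7% in the males. Those shares did not overlap, and they did not pass the test of site use (adjusted p = 0.898, edgeR). Without female 2 the 6 calls were lost, at an adjusted p of 0.342 for got2, 0.131 for capn2.2, 0.243 for foxk2, 0.347 for sdc2, 0.170 for acta2 and 0.105 for sln in edgeR. Those of got2 and sdc2 were lost without any 1 library, those of foxk2 and acta2 also without female 1 or male 2, and that of capn2.2 also without male 1 (adjusted p = 0.0555).

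Downstream sites were set against the exonic sites of their own gene by summing each kind per gene and testing both sums in edgeR. Both sums could be tested in 825 genes. The downstream sum passed the test in 283 genes (34.3%) and the exonic sum in 296 (35.9%), beside 34.5% over all summed features. Both passed in 149 genes, in 143 of them in the same direction (78 higher in females, 65 higher in males), and in 6 in opposite directions. The downstream sum alone passed in 134 genes, the exonic sum alone in 147, and neither in 395. Passing in 1 of the sums and not in the other does not show that they differ. Across the 825 genes Pearson's r of the log2 differences was 0.61, a description over genes that share libraries and, within a gene, the gene's own level.

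**Figure D2:**
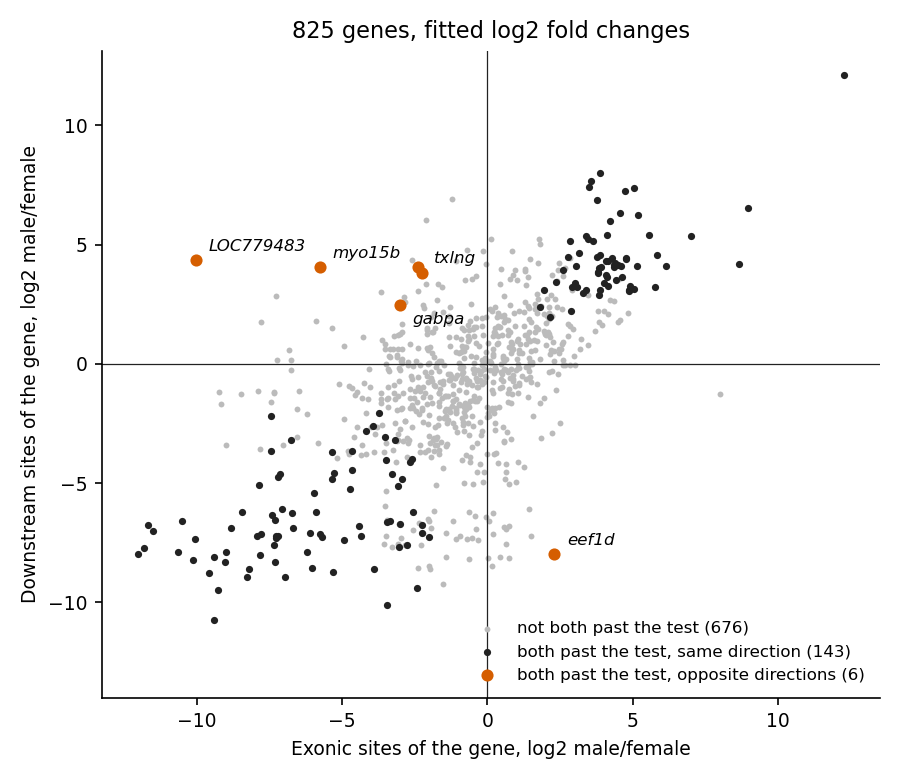
Fitted log2 male/female of the summed exonic sites (x axis) and the summed downstream sites (y axis) of 825 genes. Black points are 143 genes in which both passed the test in the same direction, orange points the 6 in which they passed in opposite directions, 5 of them named, and fitted values beyond about 6 rest on sexes at or near 0 reads.

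In 5 of the 6 genes with opposite directions, the downstream sum rose and the exonic sum fell in males. At gabpa, an ETS-family transcription factor, the downstream site on the minus strand of chromosome 2 at position 14391642, 1189 bases past the last exonic site, had 13 and 13 reads in the females against 40 and 28 in the males. The exonic sites of gabpa had 311 and 289 reads in the females against 18 and 16 in the males. In the fit of sums, the log2 difference was 2.46 (SE 0.80, adjusted p = 0.0456) downstream and -3.01 (SE 0.60, adjusted p = 0.0128) at exonic sites in edgeR. The same downstream counts did not pass the test of single sites (log2 2.07, adjusted p = 0.0971, edgeR). The females thus ended most gabpa RNA at the last exonic site and the males ended most of it downstream.

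At txlng, gamma-taxilin, a coiled-coil protein that binds syntaxins, downstream reads were 12 and 13 in the females against 126 and 49 in the males, and exonic reads 151 and 149 against 10 and 17. For myo15b, an unconventional myosin, they were 10 and 3 against 34 and 60 downstream and 306 and 154 against 4 and 0 at exonic sites. That downstream site lay 61013 bases past the last exonic site, and only intronic or exon-intron sites were seen between them. LOC779483 had 2 and 2 downstream reads in the females against 13 and 25 in the males, and 208 and 146 exonic reads against 0 and 0. The sexes did not overlap in any of these sums. In myo15b and LOC779483 the downstream sums passed the filter on low counts through the males alone, and the exonic sums through the females alone.

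The opposite case was eef1d, a subunit of the factor that recharges translation elongation factor 1 alpha. Its downstream site, 358 bases past the exonic one on the plus strand of chromosome 6 at position 134422118, had 44 and 40 reads in the females and 0 in both males. That site passed the filter on low counts through the females alone. The exonic site had 490 and 434 reads in the females against 1049 and 1006 in the males. It passed in the fit of sums (log2 2.30, SE 0.65, adjusted p = 0.0288, edgeR). In the test of single sites the same counts did not pass (log2 1.91, adjusted p = 0.0685, edgeR). Downstream CPM was at least 17.5-fold higher in females, and the downstream share of 8.24% and 8.44% in the females was at least 57.1-fold the limit of 3 reads among the males' 2055.

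Use of a site, that is its share of the gene apart from the gene's own level, was tested with edgeR's diffSpliceDGE. In it each site is set against the rest of its gene. That rest includes tested intronic sites on the gene's strand, whereas the shares given for single genes divide by exonic and downstream sites alone. The test could be run for 932 downstream sites. Higher use in females was called at 25 of them (2.68%), against 1.49% of the 9742 sites tested, and higher use in males at 8 (0.858%), against 1.99%. The 33 calls made up 3.54% of tested downstream sites, beside 3.48% over all sites. Without an adjustment, 157 downstream sites had p under 0.05. Of the 25, 16 had 0 reads in both males, and 23 were also called higher in females in the test of single sites. The 16 passed the filter on low counts through the females alone, so the filter favoured that direction. Of the 8, 5 were also called higher in males there. Shares did not overlap between the sexes, with females higher, at 300 of the 932 sites (32.2%, against 30.5% of all sites), and, with males higher, at 207 (22.2%, against 24.7%). None of the 33 calls was left when any 1 library was left out, and 7 of the 33 were also called when only exonic and downstream sites formed the gene, among 8 calls in that fit.

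**Figure D3:**
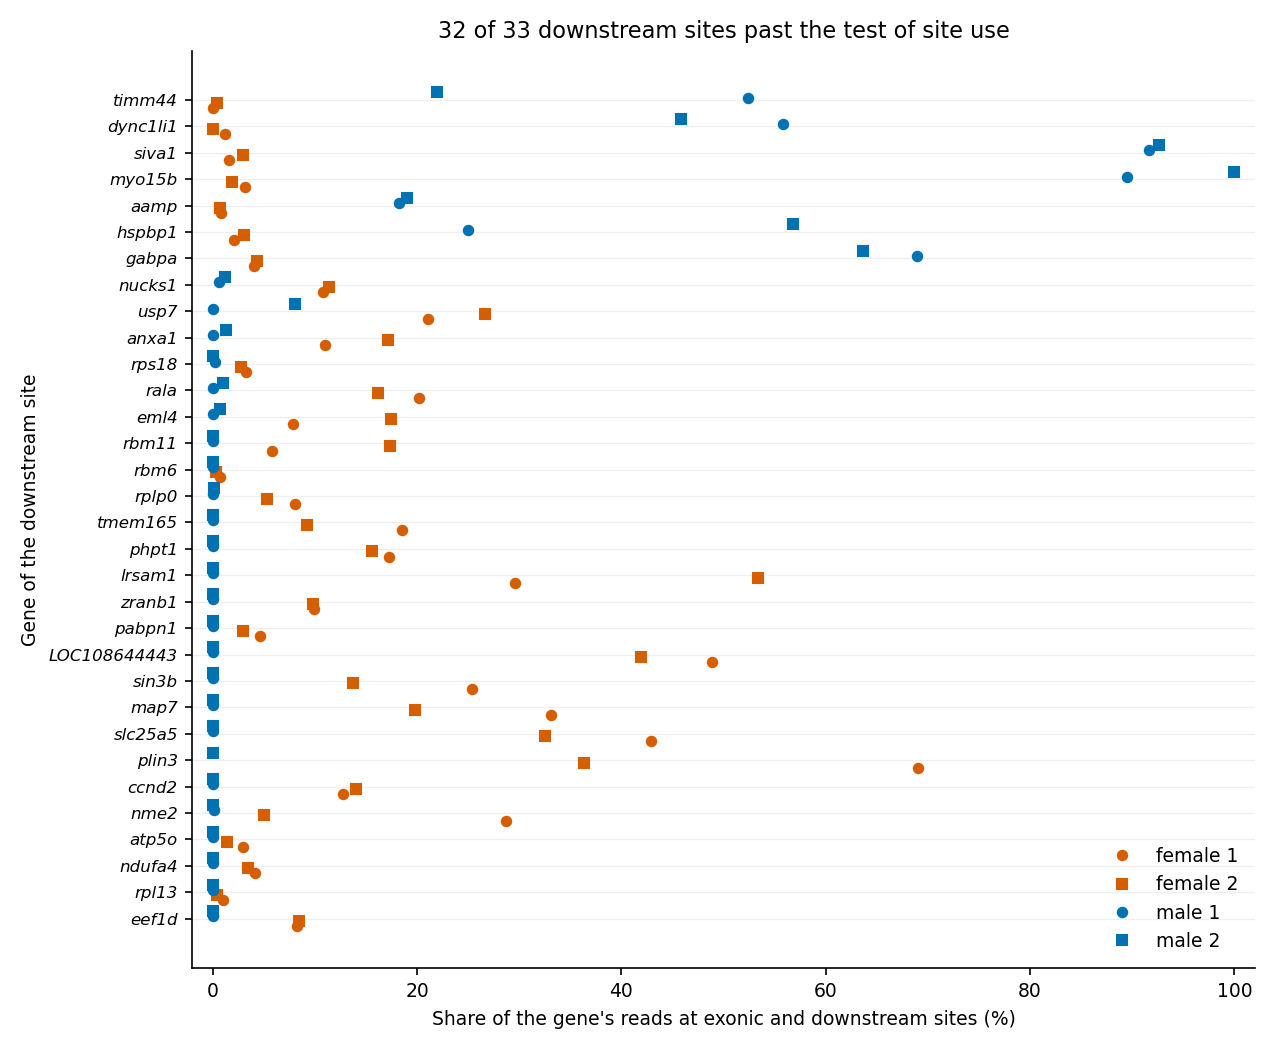
Share of the gene's reads at exonic and downstream sites (x axis, percent) for 32 of the 33 downstream sites past the test of site use (y axis, by gene), with 1 point per library. In the upper 7 genes both males lie above both females, up to 100% at myo15b in male 2, and in the lower 25 both females lie above both males, of which male 1 had no plin3 reads and is not drawn there.

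Higher use of the downstream site in males was called in 8 genes. Among them, the sites of myo15b, timm44, dync1li1 and aamp passed the filter on low counts through the males alone, so the filter favoured this direction. At siva1, an apoptosis-related protein, the site 279 bases out on the plus strand of chromosome 8 at position 78769049 held 1.58% and 2.91% of the gene's reads in the females against 91.7% and 92.6% in the males (adjusted p of use = 0.0205, edgeR). The exonic site of siva1 had 238 and 294 reads in the females against 2 and 2 in the males, while this downstream site had 4 and 9 against 22 and 25. The males' shares thus rest on 51 reads in all. Summed over all downstream sites of siva1, the share was 5.93% and 4.85% in the females against 91.7% and 92.6% in the males. At gabpa the downstream share was 4.01% and 4.3% in the females against 69.0% and 63.6% in the males (adjusted p = 0.0372, edgeR) and at myo15b 3.16% and 1.91% against 89.5% and 100% (adjusted p = 0.0327). In each of these 3 genes the downstream site was a minor end in both females and the main end in both males.

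A further 4 moved less or varied more. For timm44, a part of the motor that draws proteins into the mitochondrial matrix, the site 1157 bases out held 0% and 0.398% in the females against 52.4% and 22.0% in the males (adjusted p = 0.0207, edgeR), while its last exonic site did not pass the test (adjusted p of use = 0.714). At dync1li1, a light intermediate chain of the motor protein dynein, the site 1461 bases out had 2 and 0 reads in the females against 24 and 11 in the males, shares of 1.14% and 0% against 55.8% and 45.8% (adjusted p = 0.0237, edgeR). In aamp, a WD-repeat protein, a downstream site 5471 bases past the only exonic site was the main end in all 4 libraries, and another one, 6504 bases past the exonic site, held 0.779% and 0.741% in the females against 18.3% and 19.0% in the males (adjusted p = 0.0301, edgeR). At hspbp1, a co-chaperone of Hsp70 named after its values were seen, the shares were 2.05% and 3.04% against 25% and 56.8% (adjusted p = 0.0320, edgeR).

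**Figure D4:**
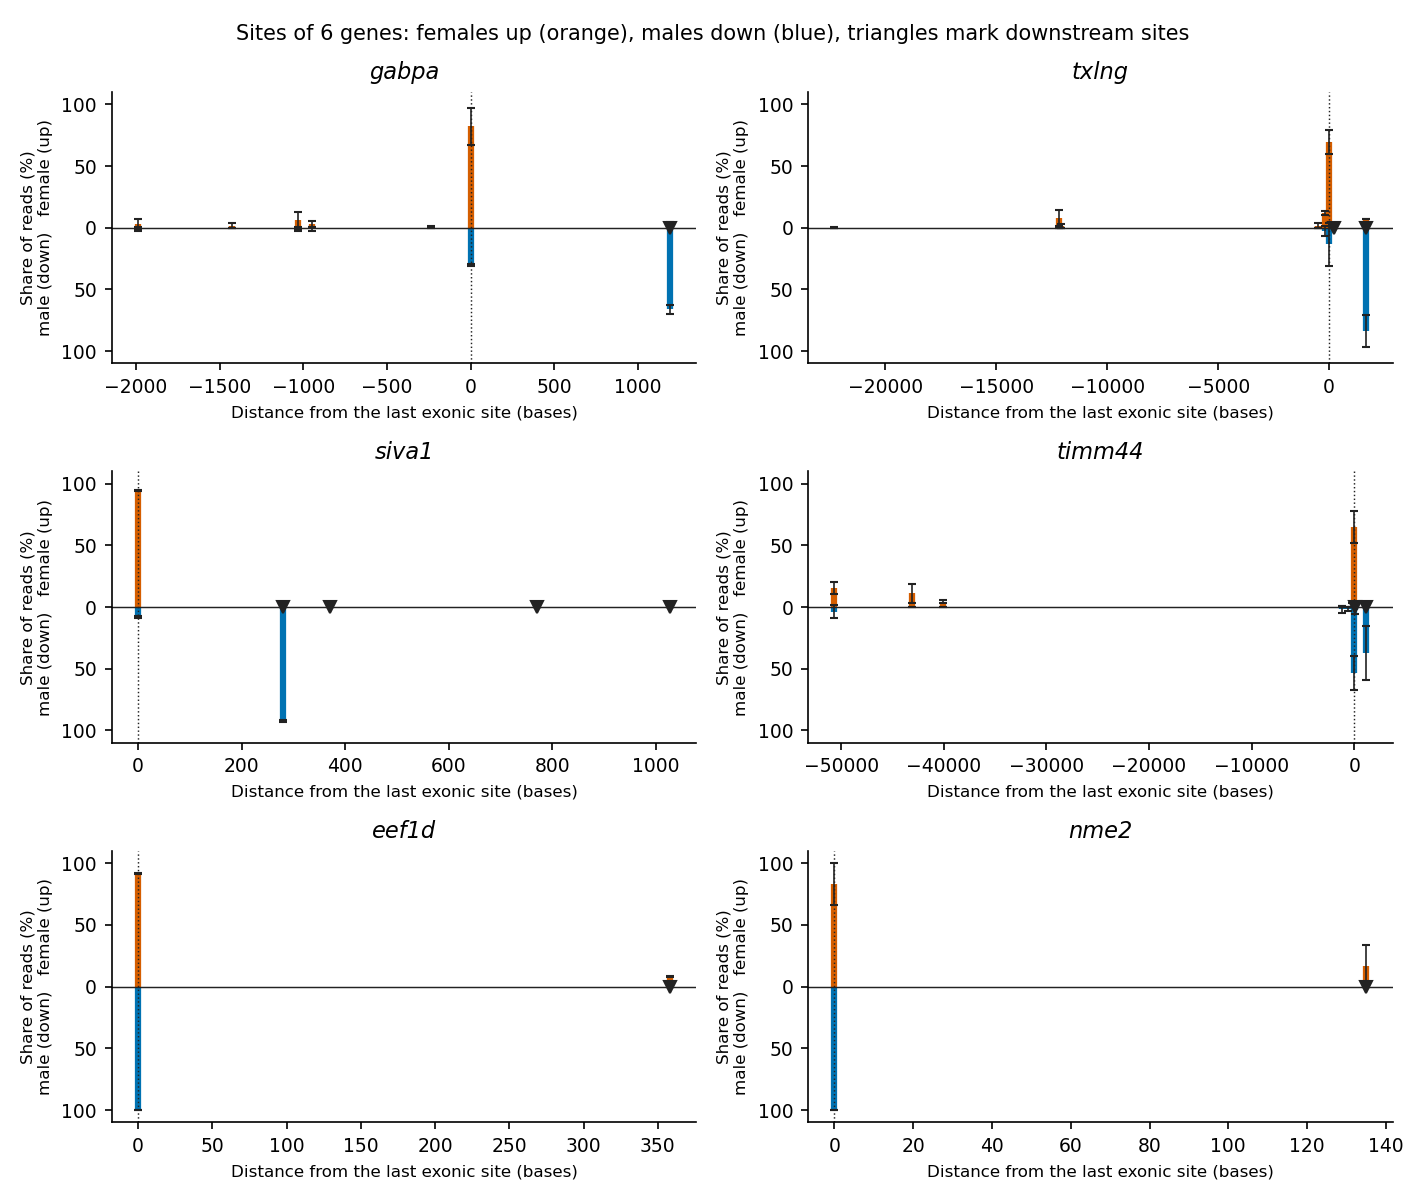
Sites of 6 genes by their distance from the last exonic site (x axis, bases), with the share of the gene's reads at exonic and downstream sites (y axis, percent) upward for the mean of 2 females and downward for the mean of 2 males, and SD as error bars. Triangles mark downstream sites. The siva1 site 279 bases out holds 92.1% of the gene's reads in the males on average and 2.25% in the females. That of eef1d holds 8.34% in the females and 0% in the males.

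The 25 sites used more in females were mostly minor ends, but some held larger shares. These were 48.8% and 41.9% in the females at LOC108644443, 42.9% and 32.5% at slc25a5 and 29.6% and 53.3% at lrsam1. These 3 genes were named after their values were seen. At the 6 with the largest fitted change the share was below 9% in both females for eef1d, rpl13, ndufa4 and atp5o, and reached 28.7% in 1 female for nme2. All 6 passed the filter on low counts through the females alone. At nme2, a nucleoside diphosphate kinase, the site 135 bases out had 308 and 61 reads in the females against 1 and 0 in the males, shares of 28.7% and 5.01% against 0.0884% and 0% (adjusted p of use = 0.0148, edgeR). Its exonic site had 767 and 1156 reads in the females against 1130 and 1290 in the males, with no difference past the test (adjusted p = 0.288). At rpl13, a protein of the large ribosomal subunit, the site had 45 and 15 reads against 0 and 0, shares of 1.04% and 0.427%, at least 46.2-fold the males' limit. The mitochondrial genes ndufa4, of the respiratory chain, and atp5o, of ATP synthase, had 16 and 19 and 77 and 19 reads in the females and 0 in the males, at least 30.8-fold and 25.1-fold by share. Some of these sites were broad regions, beside a median width of 33 bases over downstream sites. That of nme2 ran from position 183821 to 184590 and that of eef1d from 134421931 to 134422357. Those of rpl13, ndufa4 and atp5o were broad too, while that of ccnd2 ran from 2682789 to 2682793. Reads across a region were counted as 1 site.

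The cell-cycle gene ccnd2, cyclin D2, had 4 downstream sites within 4001 bases. The farthest, on the minus strand of chromosome 3 at position 2682791, had 22 and 25 reads in the females and 0 in both males, or 12.7% and 14.0% of the gene's reads against a limit of 0.616% in the males (at least 21.7-fold; adjusted p of use = 0.0148, edgeR). Its neighbour at position 2682836 had 14 and 7 reads in the females against 26 and 41 in the males and did not pass the test (adjusted p of use = 0.578). These ends of ccnd2 lay 4001 and 3956 bases past the last exonic site. At plin3, a coat protein of lipid droplets named after its values were seen, the call cannot be read as a share, since the males had 5 reads of the gene in all.

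A downstream share above 50% in both libraries of a sex and below it in both of the other was found for 15 downstream sites with females above (0.464%, against 1.23% of all sites) and for 38 with males above (1.18%, against 0.963%). Summed over the downstream sites of a gene, 9 of 1581 genes crossed with females above and 41 with males above. No like count was made for sums of other sites, so this split is not shown to be particular to downstream sites. The gene count moved with the filter, from 5 and 13 with at least 30 reads per library to 14 and 63 with at least 5, and with the libraries. Without female 1, female 2, male 1 or male 2 it was 24, 32, 22 and 36 with females above and 65, 48, 76 and 120 with males above. With all own-strand sites as the gene it was 25 and 36. The genes with most reads among those with females above were acta2, with shares of 58.7% and 75.2% in the females against 34.6% and 38.2% in the males, jph2, a junction protein of muscle membranes, with 61.4% and 57.6% against 41.1% and 44.5%, and ctr9, of the PAF1 transcription complex, with 75.9% and 57.9% against 34.1% and 32.1%. With males above they were mtpn, a regulator of actin capping, with 40.8% and 34.4% in the females against 94.7% and 90.6% in the males, axin1, a scaffold of Wnt signalling, with 5.65% and 10% against 90.5% and 83.3%, and ube2m, a NEDD8-conjugating enzyme, with 19.9% and 27.7% against 86.1% and 87.8%. These genes were named after their values were seen. At axin1 the exonic sum fell in males (log2 -5.34, SE 0.98, adjusted p = 0.0113, edgeR) while the downstream sum did not pass the test (log2 1.51, SE 0.95, adjusted p = 0.240).

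**Figure D5:**
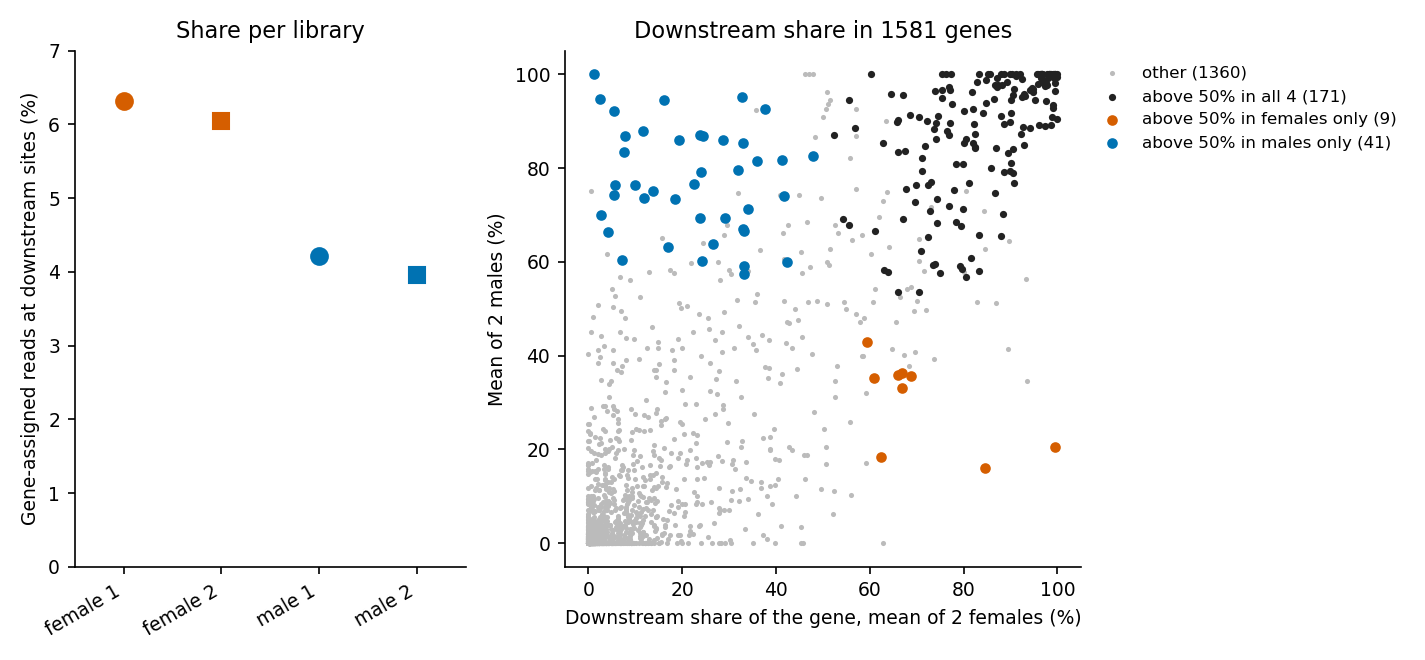
Share of gene-assigned reads at downstream sites in each library (left, percent) and the downstream share of 1581 genes as the mean of 2 females (x axis, percent) and 2 males (y axis, percent). Black points are the 171 genes above 50% in all 4 libraries, orange the 9 above it in both females and neither male, and blue the 41 above it in both males and neither female.

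Gene lists were read through their downstream sites. Each list's counts stand beside the 19.9% and 16.2% of all tested sites called higher in females and in males and the median log2 difference of -0.58.

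For oocyte and egg genes, 9 of the 26 symbols in the table had a downstream site. All 5 tested sites of the list's 18 were higher in females (median log2 -8.24), as were the summed levels of the list, and most members had 0 reads in males. The sites of zpd, zp2 and h1foo named below passed the filter through the females alone. The site of zpd, a protein of the egg coat, lay on the plus strand of chromosome 4 at position 28077440, 169 bases past the last exonic site, with 321 and 259 reads in the females and 0 in both males, at least 121-fold higher in CPM. It held 69.3% and 73.0% of the gene's reads in the females. At zp2, another egg coat protein, the deepest downstream site had 57 and 90 reads and 28.9% and 35.7% of the gene's reads in the females, and at h1foo, the linker histone of oocytes, 39 and 34 reads and 1.92% and 1.81%, with 0 in the males. Shares of these genes in males had no or hardly any reads to rest on, so the use of their sites could not be compared. Left out in turn, no library ended the calls of zpd and zp2, and h1foo lost its call without female 1 (adjusted p = 0.0994, edgeR).

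Cell-cycle genes had 11 downstream sites in 7 genes, and both tested sites were higher in females, through whose reads alone they passed the filter. The mitotic kinase plk1 had 244 and 693 reads at its downstream site, 179 bases out, in the females against 0 and 1 in the males (log2 -8.94, SE 1.35, adjusted p = 0.0197, edgeR), and 94.6% and 98.9% of its reads in the females lay there. The tested site of cdc20, an activator of the anaphase-promoting complex, had 135 and 21 reads in the females and 0 in the males, but only 12.6% and 2.32% of the gene's reads, and its call was lost without female 1 (adjusted p = 0.345, edgeR). The deepest of ccne2, cyclin E2, had 4 and 8 reads against 0 and 0 and was not tested. The list's summed level was 2814 and 3566 CPM in the females against 46.9 and 78.7 CPM in the males.

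Skeletal muscle genes had 13 downstream sites in 9 genes, of which 1 could be tested. It belonged to pgam2, the muscle phosphoglycerate mutase, and rose in males, from 28.4 and 19.4 CPM to 262 and 335 CPM (log2 3.64, SE 0.70, adjusted p = 0.0197, edgeR), a call lost without female 2 (adjusted p = 0.0955). Its share of the gene's reads was 56.9% and 32.6% in the females against 50% and 45.0% in the males, with the males between the females. The deepest site of actn2, an actin-binding protein of the sarcomere's Z-disc, had 3 and 1 reads in the females against 0 and 27 in the males, and that of pygm, muscle glycogen phosphorylase, 5, 0, 9 and 5 reads.

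In the liver list, 5 genes had 11 downstream sites. Of the 2 tested, 1 was higher in males, through whose reads alone it passed the filter on low counts. It was that of serpina1, a protease inhibitor secreted by the liver, with 7 and 3 reads in the females against 48 and 32 in the males (log2 3.68, SE 0.97, adjusted p = 0.0261, edgeR), a call lost without female 1, female 2 or male 2 (adjusted p of 0.0848, 0.207 and 0.0519). The other tested site, that of serpinc1, antithrombin, had 29 and 7 reads against 54 and 25 and did not pass (log2 1.82, SE 0.94, adjusted p = 0.159, edgeR). Its share was 34.5% and 14.6% in the females against 8.59% and 4.18% in the males. That difference did not pass the test of use (adjusted p = 0.229, edgeR). At kng1, kininogen, downstream sites had 2 and 2 reads in the females against 16 and 7 in the males. Summed over the list, levels were 2582 and 1171 CPM in the females against 14285 and 13258 CPM in the males. In the nervous system list 2 genes had 4 downstream sites, none of which passed the filter. The growth-cone protein gap43 had 4 reads there, all in male 1, and stmn2, a neuronal regulator of microtubules, had 5 and 1 reads over its 3 downstream sites in the females against 22 and 25 in the males.

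Genes of the cleavage and polyadenylation machinery itself had 18 downstream sites in 6 of 20 genes. Of 5 tested sites 1 was higher in females and none in males (median log2 -0.66). The called site passed the filter on low counts through the females alone. It was that of pabpn1, the nuclear poly(A)-binding protein that controls tail length, with 36 and 11 reads in the females and 0 in the males, at least 9.79-fold higher in CPM, a call lost without male 1 (adjusted p = 0.0655, edgeR). That site also passed the test of use, with 4.65% and 2.91% of the gene's reads against a limit of 0.408% (adjusted p = 0.0320, edgeR). At pcf11, a factor of cleavage and transcription termination, the site 261 bases out held 81.2% and 61.3% of the gene's reads in the females against 80.6% and 50% in the males. These shares leave out intronic sites, of which 1 had 4 and 3 reads in the females against 62 and 35 in the males (log2 4.41, adjusted p = 0.0197, edgeR), more in the males than the 29 and 15 reads of the downstream site. The level of the latter was 47.8 and 45.8 CPM against 14.0 and 12 CPM (log2 -1.84, SE 0.68, adjusted p = 0.0680, edgeR), which did not overlap but missed the threshold. The site of ppp1cb, a catalytic subunit of protein phosphatase 1, had 13.5 and 47.5 CPM in the females against 16.4 and 53.0 CPM in the males (adjusted p = 0.885, edgeR).

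Cytosolic ribosomal protein genes had 40 downstream sites in 24 of 64 genes. Females were higher at 2 and males at 1 of the 8 tested sites (median log2 -0.35). Higher use in females was called at 3 of the 8, where 1.49% of all sites tested for use were called so. Those called for use were at rpl13, described above, rplp0 and rps18. The sites of rpl13, with 0 reads in both males, and rplp0, with 0 and 1, passed the filter on low counts through the females alone. Their calls therefore do not characterize the list. At rps18 the site 117 bases out held 3.25% and 2.75% of the gene's reads in the females against 0.187% and 0% in the males (adjusted p of use = 0.0447, edgeR), from 164 and 48 reads against 20 and 0. The site of rplp0, a stalk protein of the large subunit named after its values were seen, held 8.03% and 5.32% against 0% and 0.0907% (adjusted p of use = 0.0205, edgeR). The site called higher in males was that of rpl22, 1281 bases out, at 6.59 and 2.06 CPM in the females against 38.2 and 37.7 CPM in the males (log2 3.10, SE 0.89, adjusted p = 0.0323, edgeR), a call lost without female 1, female 2 or male 2 (adjusted p of 0.0519, 0.274 and 0.0557). At rps19 the downstream site had 15.9 and 27.6 CPM in the females against 49.8 and 61.8 CPM in the males (adjusted p = 0.144, edgeR). Its share was 11.9% and 21.5% against 6.39% and 3.49%, which did not pass the test of use (adjusted p = 0.244, edgeR).

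Histone genes had 14 downstream sites in 5 of 11 genes, and 3 of 6 tested sites were higher in females (median log2 -4.50). Of these 3, 2 belonged to h1foo, which the oocyte list holds too, and the other to hist1h2aa. All 3 had 0 reads in both males and passed the filter through the females alone. Some histone messages end in a stem-loop in place of a poly(A) tail and would not be read by this assay. The variant h3f3a, histone H3.3, which is made throughout the cell cycle and is polyadenylated, had 17.7 and 58.2 CPM at the deepest of its 3 downstream sites in the females against 44.9 and 20.9 CPM in the males, and the sexes overlapped (adjusted p = 0.863, edgeR). None of the 3 passed the test. At hist1h2aa, a histone H2A, the downstream site had 60 and 14 reads in the females and 0 in the males, at least 15.4-fold higher in CPM.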

How the data were processed

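Libraries came from total RNA, fragmented, enriched for poly(A) RNA, copied and amplified, per the labels' protocols. The authors deposited 1 table with raw read counts for each polyadenylation site, the p-values of their own comparison of the sexes with 2 adjustments, and its fold change, per the file headers. The deposited fold change goes below 0 and was treated as a score. The submitters' processing notes list Bowtie2 2.2.3. Genome build, clustering of reads and filters: not given in the sources used here. Chromosome numbers come from gene symbols matched to RefSeq (UCB_Xtro_10.0), and positions are as deposited.

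The model was edgeR 4.0.16 (R 4.3.3) with TMM, filterByExpr (minimum count 10, minimum total 15), glmQLFit, glmQLFTest on sex, and Benjamini-Hochberg over all sites at 0.05. Site use was tested with diffSpliceDGE on own-strand sites of genes with several tested sites. DESeq2 1.42.0 was an alternative. Tests were tried first on simulated data with large changes at well-read sites, so changes at low-count sites were not covered. Standard errors are the absolute log2 value over the square root of F. A share divides by reads at exonic and downstream sites of the gene. "At least" folds use 3 reads over both libraries of the sex at 0. Priming within A-rich RNA was not tested. No label pairs frogs by number, so no block was used.

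The members, the 8 gene lists, the alternatives and the tests were chosen with earlier results of these data known. Sites were named by a rule: the 8 deepest, the 6 of largest change of use and the 6 deepest called per direction, the 5 genes with most sites, the 6 deepest majority genes, the 3 farthest sites and up to 3 per list. Some sites that the rule names are not reported here.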

Additional observations from a re-analysis of the deposited data

How the results depend on the processing

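The downstream share of reads was higher in females under each alternative tried, the order of the median gene share turned without male 1 (5.54% in females, 6.29% in male 2), and the number of calls varied. In the test of single sites, no filter on low counts gave 115 calls higher in males, and a filter of 1 CPM in 2 libraries gave 1032 higher in females and 286 in males. With 1 library left out, calls ranged from 82 to 282 and from 46 to 190. In the test of site use, no filter gave 3 and 0 calls (400 downstream sites at an unadjusted p under 0.05, edgeR), the 1 CPM filter 16 in males, a gene formed of exonic and downstream sites 7 and 1, and sums per gene 2 and 2. Each library left out gave 0 calls in both directions, with 77 to 288 sites at an unadjusted p under 0.05 (edgeR). With the replicate number as a block, 32 and 18 sites were called for use; the numbers are not stated to pair frogs, and with 2 pairs the correlation of 0.37 between same-numbered libraries cannot settle it.

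The downstream share was 5.62% and 3.62% of all reads in females and males, 6.84% and 4.43% of reads at exonic and downstream sites, and 5.62% in females without the deepest site. The median gene share in females was 3.05% at 30 reads, 6.07% at 5 reads and 5.03% to 5.54% with 1 library left out. The genes with a downstream majority in every library were 86 at 30 reads. Genes crossing 50% were 25 in females with all own-strand sites, 5 and 13 at 30 reads, 14 and 63 at 5 reads, and 22 to 36 and 48 to 120 with 1 library left out; these were chosen after seeing the data. Signs turned for 6 sites, in fits where they did not pass the threshold: ppp1cb, with a log2 difference of -0.56 with library size alone, -0.19 with no filter or the 1 CPM filter and -1.08 to 1.03 with 1 library left out, h3f3a (-0.79 to 0.57), elovl1 (-0.38 to 3.3), ncbp3 (-5.38 to 0.35, past the threshold without female 2 and with the block), nup50 (-2.09 to 0.39) and pdhb (-1.23 to 2.77). The cause was not tested. Of 7042 downstream sites, 1381 had the reads to be tested for level and 932 for use.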
